A study of Homo sapiens with 6 samples.

Results

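The kinesin superfamily was examined as 41 genes measured in KOPTK1, a human cell line from T-cell acute lymphoblastic leukaemia. The genes were chosen by name and are KIF motors and KIFAP3, the accessory subunit of kinesin-2. The list is not the complete family, and KIF2B is a measured KIF gene outside it. All 41 were measured, out of 19775 genes tested, each by the probe set with the highest mean intensity over the 6 arrays among those that carry its symbol alone. The cells were cultured for 48 h with vehicle (3 arrays) or with 1 µM PD0332991 (3 arrays), and total RNA was hybridised to Affymetrix arrays. PD0332991, also known as palbociclib, inhibits CDK4 and CDK6, which phosphorylate the retinoblastoma protein together with D-type cyclins. The treated cells are compared with the vehicle cells throughout, which asks which RNAs differ under the inhibitor. The replicates are biological triplicates of a single line at a single dose and time, per the submitters' design text. Genes were assigned by known function to 12 mitotic kinesins, 18 transport kinesins and 11 others with roles at cilia, centrioles or microtubule ends or with no settled motor role. The assignment was made with earlier results of these data known.

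Kinesins are motor proteins that hydrolyse ATP to walk along microtubules or to shorten them. Transport kinesins carry vesicles, organelles and protein complexes in interphase cells, whereas mitotic kinesins build the spindle, move and align chromosomes, and assemble the midzone and midbody at cytokinesis. Several mitotic kinesin genes are transcribed mainly in G2 and M, and promoters of such genes often hold a cell cycle genes homology region (CHR), which the MuvB core of the DREAM and MYB-MuvB complexes can bind, often at a short distance from CCAAT boxes bound by NF-Y.

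The promoters of the mitotic kinesins are shown first, because these 12 genes changed together. RefSeq promoter windows of GRCh38.p14, each with 250 bases before and 50 after a start site, matched 33 of the 41 members by symbol, and those without a window were KIF5A, KIF13B, KIF21B, KIFC2, KIFC3, KIF27, KIF19 and KIF26B. Of the 12 mitotic kinesins, 9 held the CHR letters TTTGAA on either strand (69.2% of their 13 windows), against 15.2% of all 35116 windows in the table. The variant TTCGAA was found in KIF22 only, where 2 overlapping windows share the same site (15.4% of the 13 windows), against 1.45% of all windows. CCAAT was found in 10 of the 12 genes (76.9% of their windows), against 34.6% of all windows. CHR or its variant together with CCAAT was found in 9 of the 12 (69.2% of their windows), against 6.38% of all windows. Of the 13 transport kinesins with a window, only KIF5B held TTTGAA and 4 held CCAAT, and of the 8 others KIF24 held TTCGAA and 3 held CCAAT. KIF5B and KIF24 thus held CHR or its variant together with CCAAT. The E2F site letters TTGGCGC were found in KIF15, KIF18A and KIF18B (23.1% of the mitotic windows), against 3.04% of all windows, and TTCCCGC in none of the 12, against 6.55%. Of the other members, KIF16B and KIF6 held TTGGCGC, and KIF17, KIF1C and KIF25 held TTCCCGC. All motifs were searched on both strands and none of the matches in the members' windows overlapped a match of another motif. A match is a description of letters and not a bound site. The stretches below run from 80 bases before the start base through the first 30 transcribed bases, 5′ to 3′ on the gene's strand, for the 12 mitotic kinesins and, for contrast, for KIF3A and KIFAP3, which rose. KIF3B and KIF1B, which also rose and are not shown, held CCAAT, that of KIF3B at 78 bases before its start base. Capitals mark the CHR letters, their variant and the CCAAT box, on either strand.
KIFC1 (chr6:33391743-33391852, plus strand): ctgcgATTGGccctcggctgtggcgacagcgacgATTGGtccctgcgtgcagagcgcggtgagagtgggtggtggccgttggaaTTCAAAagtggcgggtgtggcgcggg
KIF11 (chr10:92593050-92593159, plus strand): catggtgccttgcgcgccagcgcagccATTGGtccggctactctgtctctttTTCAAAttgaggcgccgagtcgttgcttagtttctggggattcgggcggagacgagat
KIF15 (chr3:44761714-44761823, plus strand): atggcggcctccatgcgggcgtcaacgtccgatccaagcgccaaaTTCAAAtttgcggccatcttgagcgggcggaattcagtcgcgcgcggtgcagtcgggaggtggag
KIF2C (chr1:44739757-44739866, plus strand): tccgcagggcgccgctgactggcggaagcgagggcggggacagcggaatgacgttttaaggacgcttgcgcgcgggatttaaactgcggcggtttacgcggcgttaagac
KIF18B (chr17:44947744-44947853, minus strand): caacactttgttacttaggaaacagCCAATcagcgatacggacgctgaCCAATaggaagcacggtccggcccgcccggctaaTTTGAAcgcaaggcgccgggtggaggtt
KIF18A (chr11:28108127-28108236, minus strand): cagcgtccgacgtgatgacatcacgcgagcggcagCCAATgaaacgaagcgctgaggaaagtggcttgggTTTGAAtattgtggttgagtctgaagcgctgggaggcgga
KIF4A (chrX:70290024-70290133, plus strand): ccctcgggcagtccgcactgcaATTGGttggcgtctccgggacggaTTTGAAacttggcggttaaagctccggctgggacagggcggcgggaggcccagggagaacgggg
KIF22 (chr16:29790671-29790780, plus strand): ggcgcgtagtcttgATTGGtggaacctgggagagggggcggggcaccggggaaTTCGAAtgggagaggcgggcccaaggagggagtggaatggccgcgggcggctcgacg
KIF20A (chr5:138179032-138179141, plus strand): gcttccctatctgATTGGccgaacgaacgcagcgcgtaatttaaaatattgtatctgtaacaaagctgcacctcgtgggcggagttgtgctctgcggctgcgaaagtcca
KIF23 (chr15:69414269-69414378, plus strand): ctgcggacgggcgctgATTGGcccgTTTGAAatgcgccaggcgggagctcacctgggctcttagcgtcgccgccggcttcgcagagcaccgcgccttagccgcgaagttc
KIF14 (chr1:200620722-200620831, minus strand): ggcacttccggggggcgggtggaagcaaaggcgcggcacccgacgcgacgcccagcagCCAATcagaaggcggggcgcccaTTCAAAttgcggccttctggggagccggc
KIF20B (chr10:89701510-89701619, plus strand): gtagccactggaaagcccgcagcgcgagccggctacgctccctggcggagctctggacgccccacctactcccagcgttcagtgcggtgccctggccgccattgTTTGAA
KIF3A (chr5:132737517-132737626, minus strand): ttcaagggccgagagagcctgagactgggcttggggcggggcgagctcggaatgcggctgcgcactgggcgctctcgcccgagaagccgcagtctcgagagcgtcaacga
KIFAP3 (chr1:170074666-170074775, minus strand): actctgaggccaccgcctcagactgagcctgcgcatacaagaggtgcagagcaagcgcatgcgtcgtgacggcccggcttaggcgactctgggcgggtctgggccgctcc
In KIF4A, KIF11, KIF14, KIF15, KIF18A, KIF18B and KIFC1 the CHR match began between 35 bases before and 4 bases after the start base, and in all of these but KIF15 a CCAAT box lay upstream of it. KIF23 had its match 55 bases before the start base, downstream of a CCAAT box, and KIF22 had the variant 27 bases before it. KIF20B had its matches at 24 and 30 bases after the start base, with CCAAT boxes upstream of the stretch shown. KIF2C had no CHR, variant or CCAAT match in its window, and KIF20A had CCAAT boxes only.

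**Figure D1:**
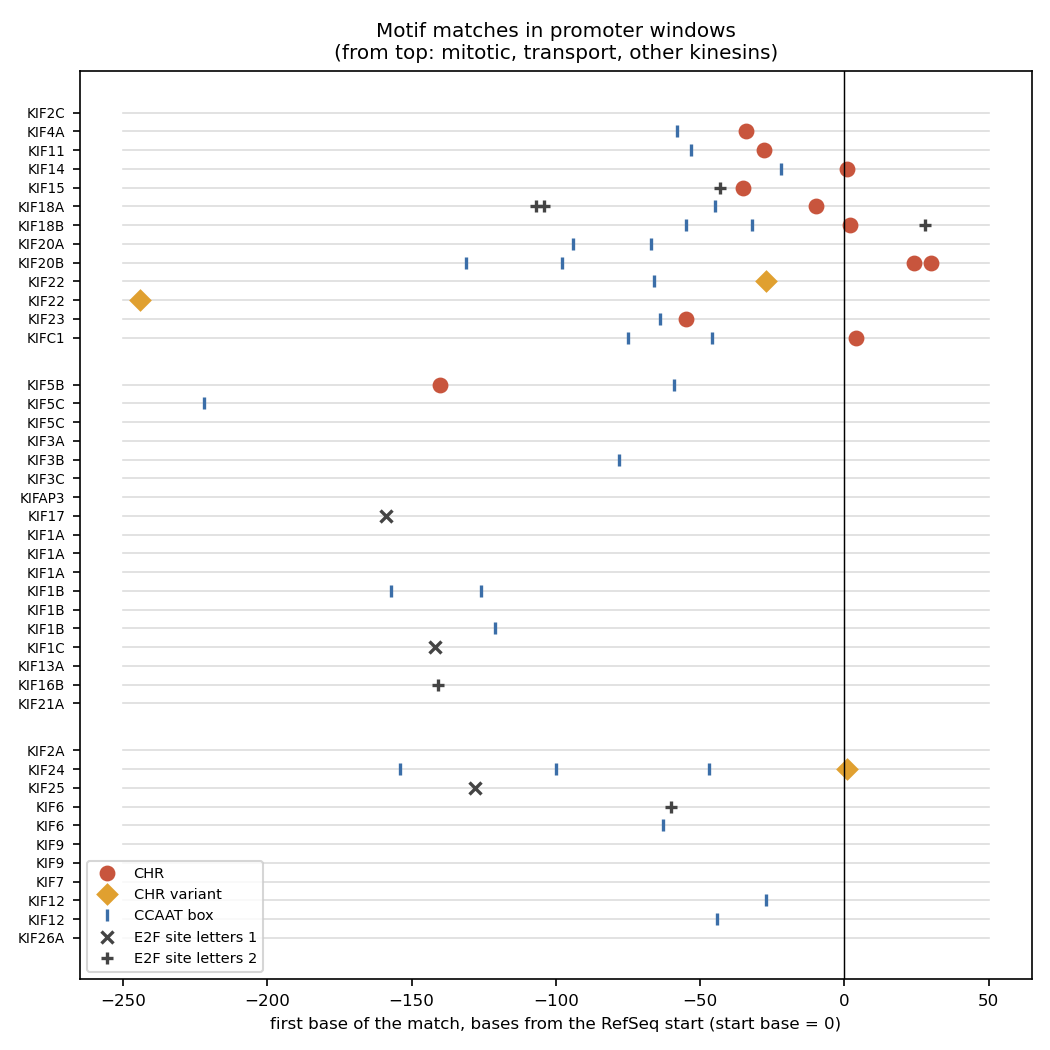
Positions of motif matches in the promoter windows of 33 kinesins, as bases from the RefSeq start (x axis, start base at 0), with 1 line per window and genes with several start sites on several lines. Circles are CHR matches, diamonds the CHR variant, bars CCAAT boxes, and crosses and plus signs the E2F site letters, and the CHR matches of 9 mitotic kinesins lie near the start.

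All 12 mitotic kinesins fell with PD0332991, against 13.6% of all genes, while the transport kinesins moved little and in both directions. The classes were set with earlier results of these data known, so the counts by class are a description and not a test. A gene is said to rise or fall where its limma p, adjusted over all genes, was under 0.05, and fold changes are differences of mean log2(intensity + 16), where 16 is a pseudocount in array units. The median log2 fold change of the mitotic class was −3.15, or 8.87-fold lower, against 0.19 for the transport class, 0.01 for the others and 0.01 over all genes tested. Of the 18 transport kinesins 3 fell and 7 rose, against 13.6% and 15.6% of all genes, or 10 called in either direction against 29.3%. Of the other 11 kinesins 3 were lower and 2 higher. Among those lower was KIF2A, which also acts at spindle poles and had a log2 fold change of −0.52. A decrease of at least 4-fold was called in 10 of the 12 mitotic kinesins and in 0.753% of all genes, and one of at least 8-fold in 8 of the 12 and in 0.263% of all genes. The groups did not overlap for any of the 12, for 11 of the 18 transport kinesins and for 5 of the others, against 43% of all genes. In these bulk samples, fewer cells in the phases that express a gene and less of its RNA per cell cannot be told apart.

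**Figure D2:**
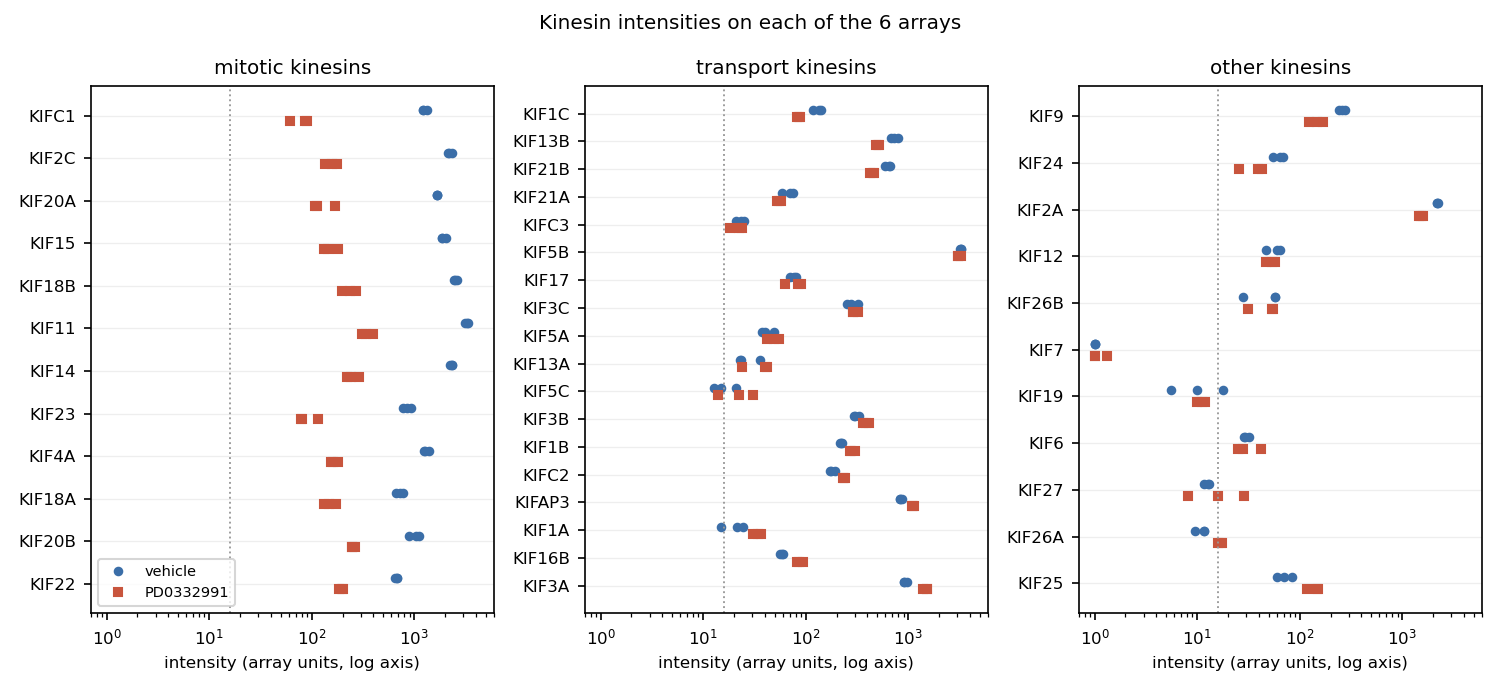
Intensity (array units, log axis) of each kinesin on the 3 vehicle arrays (circles) and the 3 PD0332991 arrays (squares), by class, with the pseudocount of 16 as a dotted line. In the mitotic panel the vehicle arrays of every gene lie to the right of its PD0332991 arrays, and in the transport panel the groups lie close together or overlap.

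The motors that set spindle shape had among the largest decreases of all genes. KIFC1, the minus-end-directed motor that draws spindle poles and extra centrosomes together, had intensities of 1210, 1347 and 1213 with vehicle and 62.1, 89.1 and 86.9 with PD0332991. It kept 6.31% of its vehicle intensity, and its log2 fold change of −3.75 (SE 0.13, adjusted p = 2.4e-05 in limma) was the third lowest of all genes. KIF11, the plus-end motor that slides antiparallel microtubules apart to make the spindle bipolar, was at 3323, 3301 and 3137 with vehicle and 308, 339 and 399 with PD0332991. All 3 treated arrays lay far below all vehicle arrays, and the log2 fold change was −3.17 (SE 0.10, 9.01-fold lower). KIF15, which helps to keep the spindle bipolar, went from 2031, 1881 and 1848 to 144, 131 and 182. Its log2 fold change was −3.53 (SE 0.12), so that KIF15 and KIF11 fell together with KIFC1, which pulls in the opposite direction.

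The depolymerising and plus-end kinesins of the kinetochore and spindle fell by more varied amounts. KIF2C, also called MCAK, which takes microtubules apart at centromeres and corrects faulty attachments, had 2138, 2191 and 2337 with vehicle and 134, 158 and 176 with PD0332991. It kept 7.03% of its vehicle intensity, and its log2 fold change of −3.71 (SE 0.10) was the fourth lowest of all genes. KIF18B, which limits the length of astral microtubules, went from 2441, 2509 and 2601 to 200, 236 and 273, a log2 fold change of −3.34 (SE 0.11). Its relative KIF18A, which damps chromosome movements as they align, went from 782, 732 and 666 to 133, 146 and 171. Its log2 fold change of −2.16 (95% interval −2.42 to −1.91) was smaller than that of KIF18B (−3.61 to −3.06), and these intervals did not overlap.

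The chromokinesins, which bind chromosome arms, stood at different places in the class. KIF4A, which also binds PRC1 at the midzone, went from 1279, 1253 and 1385 to 154, 162 and 180, 7.29-fold lower. KIF22, also called Kid, went from 677, 682 and 649 to 185, 198 and 203. It kept 29.2% of its vehicle intensity, the smallest decrease of the 12 (log2 fold change −1.70, SE 0.06). The groups of KIF22 were still well apart, with the highest treated array at 203 and the lowest vehicle array at 649.

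The kinesins of cytokinesis fell as well. KIF20A, which brings the chromosomal passenger complex to the midzone, went from 1673, 1671 and 1662 to 109, 112 and 168, a log2 fold change of −3.56 (SE 0.16). KIF23, the motor subunit of centralspindlin, went from 929, 853 and 782 to 80.6, 78.9 and 116, 8.14-fold lower. KIF14, which localises citron kinase to the midbody, went from 2313, 2232 and 2351 to 223, 241 and 288, 8.73-fold lower. In these 3 genes PD0332991 replicate 3 was the highest of the treated arrays, and it was still below every vehicle array. KIF20B, a further kinesin of the cytokinesis group, went from 1121, 1032 and 889 to 264, 246 and 250, only 3.81-fold lower. The largest adjusted p among the 12 was 6.7e-05, and all 12 kept their direction and call under every alternative in which they were measured, with 1 array left out in turn among them.

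**Figure D3:**
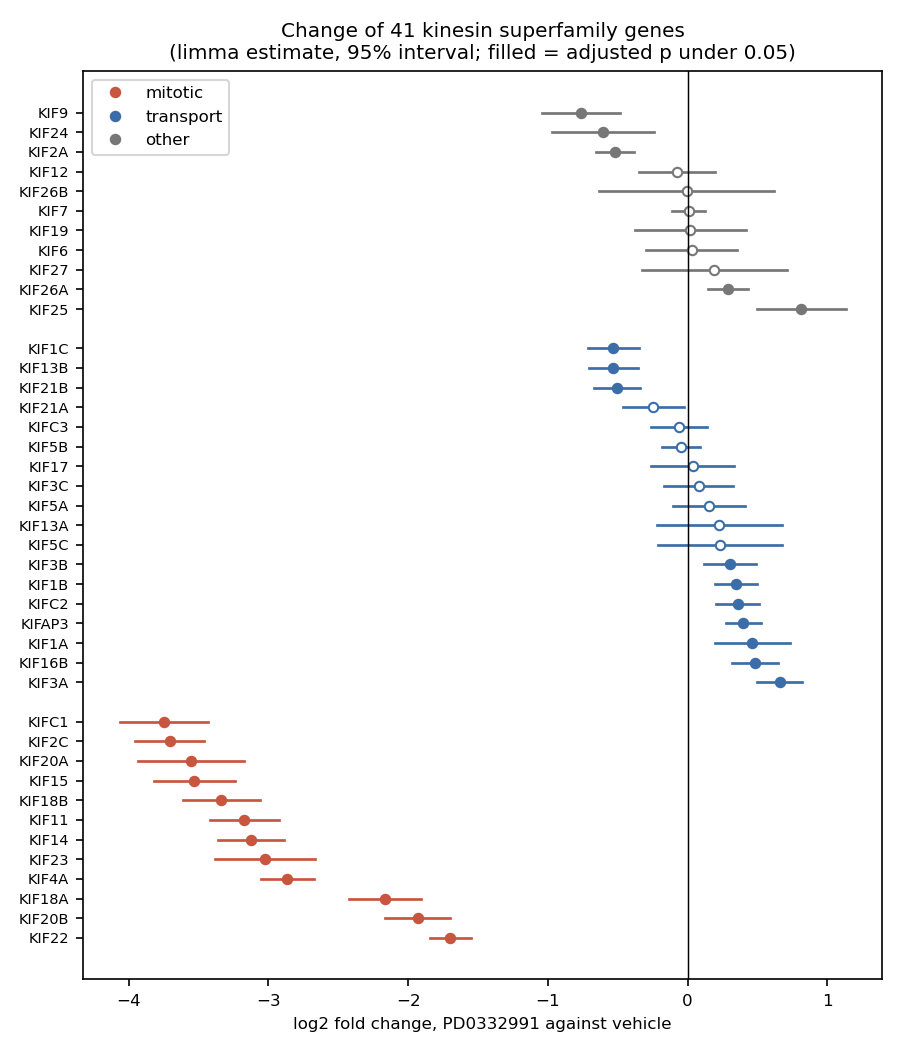
Log2 fold change of PD0332991 against vehicle for the 41 kinesins, with the limma estimate and its 95% interval by class, filled where the adjusted p was under 0.05. The mitotic kinesins run from −3.75 for KIFC1 to −1.70 for KIF22, and the transport kinesins lie between −0.53 for KIF1C and 0.66 for KIF3A.

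Among transport kinesins, the subunits of heterotrimeric kinesin-2 rose. KIF3A, KIF3B and KIFAP3 form the complex that carries cargo along cilia and cytoplasmic microtubules. KIF3A was at 971, 912 and 907 with vehicle and at 1539, 1385 and 1517 with PD0332991, 1.58-fold higher (log2 fold change 0.66, SE 0.07, adjusted p = 8.5e-04 in limma). KIFAP3 went from 828, 868 and 835 to 1115, 1140 and 1100, with 0.40 (SE 0.05, adjusted p = 0.0024). KIF3B went from 303, 296 and 334 to 411, 389 and 361, with 0.30 (SE 0.08, adjusted p = 0.029), while its other probe set was at 0.20 and did not pass (adjusted p = 0.087 over all probe sets). The groups of these 3 genes did not overlap. KIF3B did not pass when vehicle replicate 1 or 2 or treated replicate 1 or 2 was left out (adjusted p 0.081 to 0.1). KIF3C, which can replace KIF3B as the partner of KIF3A, was at 253, 278 and 324 and then 290, 324 and 289, with overlapping groups and 0.08 (95% interval −0.17 to 0.33). KIF17, which forms the homodimeric kinesin-2, was at 0.04 (−0.26 to 0.34).

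The heavy chains of kinesin-1, the conventional long-range motor, did not pass. KIF5B, the form found in most cells, had 3254, 3256 and 3199 with vehicle and 3288, 3050 and 3056 with PD0332991. Its groups overlapped, and the log2 fold change was −0.05 (95% interval −0.19 to 0.09), although the dimmest of its 3 probe sets was lower by −0.25 (adjusted p = 0.043 over all probe sets). KIF5A and KIF5C, forms enriched in neurons, had mean intensities under the median probe set of the arrays in both groups, with 0.15 (−0.10 to 0.41) and 0.23 (−0.21 to 0.68).

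The kinesin-3 motors, many of which move vesicles and endosomes, split. KIF16B, a motor of early endosomes, rose from 58.3, 56.1 and 60.7 to 81.8, 87.1 and 94.9, a log2 fold change of 0.48 (SE 0.07, adjusted p = 0.0032). KIF13B fell from 733, 793 and 684 to 511, 516 and 486, with −0.53 (SE 0.07, adjusted p = 0.0028). KIF1C fell from 140, 134 and 117 to 87.1, 82.2 and 86.7, also with −0.53 (SE 0.08, adjusted p = 0.0033). KIF16B lost its call with the mean of its probe sets (0.28, adjusted p = 0.067), and KIF1C with the same (−0.34, adjusted p = 0.058) or on a dimmer probe set (−0.12, adjusted p = 0.82). KIF1A, a motor of synaptic vesicle precursors, was at 15.1, 21.4 and 24.4 and then 34.0, 36.5 and 30.9. Its log2 fold change of 0.46 (adjusted p = 0.023) came from intensities near the pseudocount and did not pass with vehicle replicate 2 or treated replicate 1 or 2 left out (adjusted p 0.059 to 0.076). KIF13A, at 27.4 and 35.1, did not pass.

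KIF1B, which has isoforms that carry mitochondria or synaptic vesicle precursors, was the only member with probe sets called in both directions. Its brightest probe set went from 224, 220 and 216 to 304, 271 and 279, a log2 fold change of 0.35 (SE 0.06, adjusted p = 0.0085 over genes and 0.017 over probe sets). Its next probe set went from 191, 177 and 216 to 129, 123 and 140, with −0.52 (SE 0.09, adjusted p = 0.011 over all probe sets). In each the groups did not overlap, and the remaining 2 probe sets were at −0.26 and −0.05 and did not pass. Over all probe sets of the array, 10.2% were lower and 10.7% higher. Which transcripts these probe sets match was not analysed here.

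The kinesins that act on microtubule growth and the minus-end transport motors also went both ways. KIF21A and KIF21B were counted in the transport class, although they also act on microtubule growth. KIF21B, which limits microtubule growth, fell from 656, 663 and 598 to 426, 450 and 460, with −0.51 (SE 0.07, adjusted p = 0.0024). KIF21A, its relative, was at −0.25 (SE 0.09, adjusted p = 0.092), did not overlap between groups, and passed without vehicle replicate 1 (adjusted p = 0.034) or with quantile normalization (0.048). KIFC2 rose from 194, 177 and 172 to 230, 238 and 241, with 0.36 (SE 0.06, adjusted p = 0.0080), while its other probe set was at 0.24 and did not pass. KIFC3 was dim, at 23.0 and 21.5, and did not pass.

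Of the remaining 11 kinesins, KIF2A, KIF24 and KIF9 fell. KIF2A, a depolymerase and a relative of KIF2C that acts at spindle poles and in interphase cells, fell from 2214, 2180 and 2160 to 1512, 1462 and 1585, with −0.52 (SE 0.06, adjusted p = 0.0011), and its other probe set fell too. The log2 fold change of KIF2C was −3.71 (95% interval −3.95 to −3.46) against −0.66 to −0.38 for KIF2A. KIF24, a depolymerase of the mother centriole that holds back cilium formation, went from 54.4, 69.1 and 64.5 to 43.3, 25.7 and 39.5, with −0.60 (SE 0.15, adjusted p = 0.028). Its groups did not overlap, but it did not pass with vehicle replicate 2 or 3 or treated replicate 3 left out (adjusted p 0.057 to 0.090).

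KIF9, a kinesin of motile cilia, fell from 240, 259 and 276 to 124, 169 and 147, with −0.76 (SE 0.11, adjusted p = 0.0041). Of its 4 probe sets, the 3 that fell have IDs ending in _x_at, which marks probes that may cross-hybridise with unrelated sequences. The fourth, at 18.2 and 29.4, was at 0.42 and did not pass. KIF25 had the largest increase of the family, from 60.5, 70.8 and 84.3 to 149, 147 and 118, with 0.81 (SE 0.13, adjusted p = 0.0052), on an _x_at probe set, and its other probe set was at 0.45 and did not pass. KIF26A, an atypical kinesin without motility, was called higher with 0.29 (adjusted p = 0.014) from vehicle and treated means of 10.96 and 16.9, below and just above the pseudocount. It did not pass with vehicle replicate 2 (adjusted p = 0.053) or treated replicate 3 (0.051) left out. KIF7, a regulator of Hedgehog signalling at the cilium, was listed at 1.00 on 5 of the 6 arrays, and KIF6, KIF12, KIF19, KIF26B and KIF27 did not pass, with means between 11.03 and 57.1. The values carry no detection calls, so how far the dim members lie above background is not known, including those that were called.

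KIF2C, KIF14, KIF22 and KIF23 fell again on other probe sets, KIF20B did not, and the transport kinesins often differed between probe sets. Of 18 probe sets of mitotic kinesins 16 were lower, against 10.2% of all probe sets. The 18 include the brightest probe set of each gene, on which the calls above rest, and only 5 of the 12 genes have several. The 2 that were not called belong to KIF20B and stayed below an intensity of 12 on every array. For this reason the mean of its probe sets put KIF20B at −0.65. The second probe sets of KIF2C, KIF14, KIF23 and KIF22 gave −3.25, −3.16, −2.64 and −1.26. Probe sets of a gene share its RNA sample and are not replicates. Over all members, 85 probe sets were measured, of which 27 were lower, 10 higher and 48 not called.

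**Figure D4:**
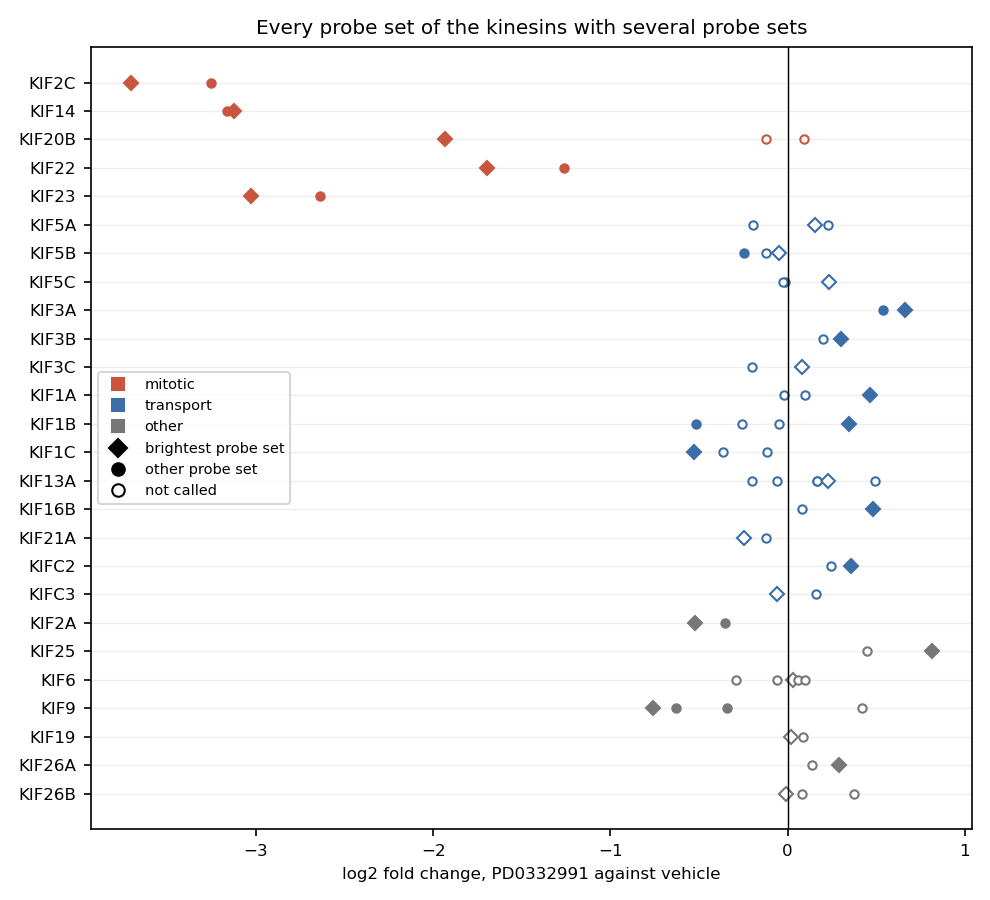
Log2 fold change of every probe set for the 26 kinesins with several, with diamonds for the brightest probe set of a gene and circles for the others, filled where called over all probe sets. Those of KIF2C, KIF14, KIF22 and KIF23 lie together on the lower side, and those of KIF1B lie on both sides of 0.

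Genes that work with the kinesins were counted from lists chosen for their known roles. Of 16 measured partners and regulators of the mitotic kinesins, limma called 14 lower and none higher, against 13.6% and 15.6% of all genes. Without adjustment (p under 0.05) it also called 14 and none, against 18.1% and 20.8% of all genes. Their median log2 fold change was −2.74. PRC1, which bundles midzone microtubules and binds KIF4A, was at −3.59, AURKB, the kinase carried by KIF20A, at −3.42, BIRC5, a partner of AURKB, at −3.30, and HMMR, a spindle assembly factor, at −3.21. RACGAP1, the centralspindlin partner of KIF23, kept more of its RNA, at −1.65, and the smallest called decreases were those of NUMA1 and PLK1, at −0.51 and −0.46. MAPRE1 and KIFBP, which did not pass, were at −0.03 and −0.05. RACGAP1, NUMA1, PLK1, MAPRE1 and KIFBP were named after their values were seen. CENPE, the kinesin-7 of the kinetochore and no member of the 41, fell from 1919 ± 40.9 to 207 ± 18.3 (SD, n = 3 each), 8.68-fold. STARD9, a kinesin of the centrosome, fell 2.49-fold, and KIF2B was called higher at 0.30 from intensities of 4.70 and 9.40, below the pseudocount. Neither is a member of the 41.

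Few light chains and adaptors of the transport motors were called, and the dynein genes went both ways. Of 15 measured kinesin light chains and cargo adaptors, 2 rose and none fell in limma, a share near the 15.6% of all genes that rose. Without adjustment 4 were higher and 1 lower, against 20.8% and 18.1% of all genes. Their median log2 fold change was 0.12. The adaptor MAPK8IP3 rose by 0.88 and the light chain KLC4 by 0.49, the latter from an intensity of 22.9. Of 22 measured genes of cytoplasmic dynein, the minus-end-directed motor, with dynactin and its adaptors, 7 rose and 4 fell, against 15.6% and 13.6% of all genes, with a median of −0.03. The light intermediate chain DYNC1LI2 rose by 0.72, the adaptor BICD1 by 0.66 and the light chain DYNLT3 by 0.50, while the dynactin subunit DCTN3 was at −0.59 and NDE1 at −0.35. Of 12 genes linked to the ciliary and centriolar kinesins, 2 fell and 1 rose, against 13.6% and 15.6% of all genes, with a median of −0.05. CCP110, which caps centrioles together with CEP97 and binds KIF24, was at −1.12, CEP97 at −0.86 and the intraflagellar transport gene IFT20 at 0.30.

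**Figure D5:**
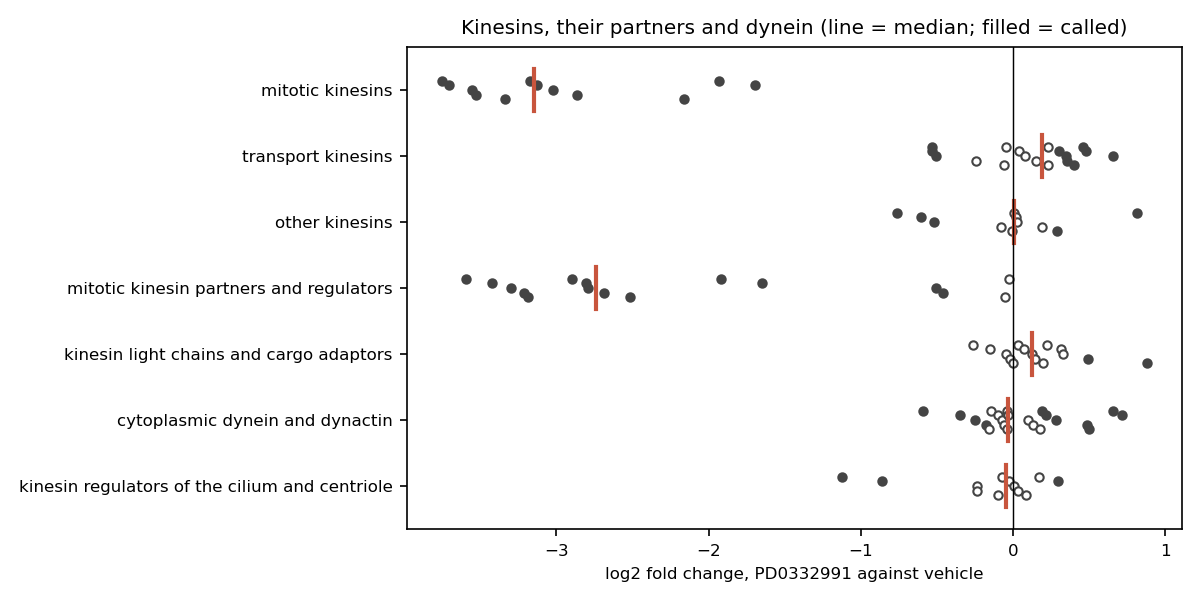
Log2 fold changes of the kinesin classes and of 4 lists of genes that work with them, with 1 point per gene, filled where called, and a line at each median. The mitotic kinesins and their partners have medians of −3.15 and −2.74, and the other lists have medians between −0.05 and 0.19.

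The arrays themselves were alike. The median intensity of their 54613 probe sets without controls was 49.1 to 54.2. Pearson's r across genes, which are no replicates of each other, was 0.993 to 0.996 within groups and 0.976 to 0.979 between groups. The number of arrays limits the precision. All 13 measured T cell markers were above the median probe set with vehicle, with means of 256 to 7656, and 7 rose, against 15.6% of all genes, among them CD1A by 1.04, RAG1 by 0.92, CD2 by 0.81 and PTCRA by 0.59. Their summed intensity was 37084 to 38859 with vehicle and 44590 to 45769 with PD0332991. Of the lists of other cell types, summed intensities with vehicle and with PD0332991 were 366 to 431 and 594 to 760 for 4 B cell markers, 285 to 307 and 242 to 264 for 6 myeloid markers, 185 to 234 and 176 to 230 for 2 erythroid markers, 274 to 317 and 267 to 308 for 6 epithelial and fibroblast markers, and 2189 to 2287 and 753 to 976 for 5 neuronal markers. Those called were CD79A, which rose by 0.94, MPO at −0.26 and the tubulin gene TUBB3 at −1.54, and their part in the kinesin results was not tested. TUBB3 made up most of the neuronal sum. TUBB3 and PTCRA were read on _x_at probe sets, whose probes may cross-hybridise.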

How the data were processed

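Total RNA of 3 vehicle and 3 PD0332991 cultures was measured on 6 one-colour Affymetrix arrays, per the labels' protocols. The authors deposited 1 linear intensity per probe set, from 0.56 to 16362, summarised and scaled with a method not given in the sources used here. Their 2% trimmed means were 282 to 294 per array, so no further normalization was applied. A value is thus relative to the rest of its array. Values were taken as log2(intensity + 16), and all fold changes are on that scale, which understates changes of dim genes.

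Of 54613 probe sets without 62 controls, 41091 carried 1 symbol in the platform annotation, 1801 several and 11721 none. Gene IDs were checked against the RefSeq table of GRCh38.p14, which changed no symbol and lacked the IDs of 54 probe sets. The brightest probe set stood for each of 19775 genes, with no filter on dim ones. The test was limma's (version 3.58.1, R 4.3.3), with lmFit and eBayes on 4 residual degrees of freedom, two-sided. P-values were adjusted by Benjamini-Hochberg across the genes, or across probe sets where stated. On simulated data with 19775 genes, 16, 45, 48 and 50 of 50 genes lowered by 0.5, 1, 2 and 3 on the log2 scale were recovered, and 5 unchanged genes were called. Only these lowered genes changed in the simulation, whereas 29.3% of genes were called in the data. The adjusted threshold therefore differs between them, and the recovery is a check of the code and not the sensitivity in the data. Figures were drawn with matplotlib 3.10.9.

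The members, classes and lists were chosen with earlier results of these data known. All members were named, and from each list the 4 largest called changes and up to 2 called against the direction of most. List genes without a probe set of their own symbol were not analysed here. The results were recomputed with pseudocounts of 1 and 64, quantile normalization, median centring, a replicate block, a filter on dim genes, probe sets averaged per gene, IDs ending in _x_at or _s_at removed, trend and robust eBayes, all probe sets tested, and each array left out in turn.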

Additional observations from a re-analysis of the deposited data

How the results depend on the processing

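All 12 mitotic kinesins stayed lower in every alternative in which they were measured. With IDs ending in _x_at or _s_at removed, 8 were measured and all 8 were lower. The median log2 fold change of the class was −2.96 with a pseudocount of 64 and ran from −3.25 to −3.07 with 1 array left out. Calls of the transport kinesins depended more on the processing: 4 of their 10 calls, those of KIF3A, KIFAP3, KIF13B and KIF21B, held in every alternative. KIFAP3, KIF13B and KIF21B have 1 probe set each, without such an ID ending. Averaging probe sets or removing IDs therefore left their values unchanged. The transport calls that did not hold were all of genes with several probe sets. Higher transport kinesins numbered 4 with the mean of probe sets and 5 to 7 with 1 array left out. The median of the transport class was 0.26 with a pseudocount of 1, 0.094 with 64, 0.30 after the filter on dim genes, 0.056 with averaged probe sets and 0.096 with those IDs removed. It ran from 0.084 to 0.22 with 1 array left out, with 0.084 without PD0332991 replicate 2 and 0.13 without vehicle replicate 1. Of the other kinesins, 1 was higher with a pseudocount of 64, after the filter, with averaged probe sets, with those IDs removed and in trend and robust eBayes, and 1 to 2 with 1 array left out. KIF1B reversed to −0.12 with the mean of probe sets, and with those IDs removed KIF1A was at −0.020 and KIF9 at 0.42, on other probe sets of these genes.

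Deviations of same-numbered arrays from their group means correlated at 0.13, 0.08 and 0.09 over brighter genes. Each array correlated best with its own number, a hint from the data and not the design, and the numbers were not taken as pairing. With the replicate block, 2273 genes were lower and 2520 higher in place of 2698 and 3088. All 12 mitotic kinesins stayed lower, 5 transport kinesins were higher and 3 lower, and KIF3B, KIF1A and KIF24 lost their calls (adjusted p 0.087, 0.053 and 0.075).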

Other observations

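The residual intensities of the mitotic kinesins differed between the treated arrays in a shared direction. Each culture had a single array, so a difference between cultures cannot be told from a difference between arrays. How often other genes had the same order was not analysed here. Of the 12 genes, 10 had their highest treated intensity on PD0332991 replicate 3 and 9 their lowest on replicate 1, and of the 16 partners and regulators 12 had their highest on replicate 3 and 14 their lowest on replicate 1. The class mean of log2(intensity + 16) was 7.40, 7.50 and 7.72 on the treated arrays, and 10.55, 10.53 and 10.49 on the vehicle arrays. The transport class had 7.61, 7.67 and 7.59 on the treated and 7.48, 7.54 and 7.54 on the vehicle arrays, with its highest members spread over the treated arrays as 6, 8 and 4 of 18. The class means shifted by −2.99 for the mitotic and 0.10 for the transport kinesins.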
